A study of Mus musculus with 6 samples.

Results

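The genes described here encode the enzymes and transporters of 3 connected routes of sugar metabolism, and they were chosen from a list of 37 symbols matched by Ensembl identifier, out of 57132 genes in the table. The list holds 16 genes of glycolysis with glucose import and lactate export, 6 of the pentose phosphate pathway, and 15 of the pyruvate dehydrogenase complex and tricarboxylic acid (TCA) cycle with its related dehydrogenases. All 37 passed the filter on low counts. Messenger RNA was sequenced from dendritic cells that had been grown out of mouse bone marrow with the cytokine GM-CSF. The marrow came from C57BL/6 females of 6 to 8 weeks, and every culture had 15 ng/mL GM-CSF and a serum that was dialyzed. The medium contained sodium pyruvate, the product of glycolysis, at 1 mM. The 0Q group had no queuine in the medium and the 100Q group had 100 nM queuine. Both were fed on days 2 and 4 and harvested on day 5, with 3 libraries in each group. Queuine is the base that cells place at the first anticodon position of 4 tRNAs, those of Asn, Asp, His and Tyr, forming queuosine. The series asks how that tRNA modification bears on codon use, proliferation and MHC class II. The labels call the wells triplicates and do not say whether they came from separate animals, so p-values cover only the spread among these wells, and that spread may be technical.

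Glycolysis splits glucose into pyruvate in the cytosol, yielding ATP and NADH, and lactate dehydrogenase regenerates the NAD that it consumes. The pentose phosphate pathway branches from glucose 6-phosphate: its oxidative arm makes NADPH and its non-oxidative arm exchanges sugars of different lengths to make ribose for nucleotides. Pyruvate dehydrogenase feeds acetyl groups to the TCA cycle in mitochondria, whose dehydrogenases supply the respiratory chain. Dendritic cells are known to raise glycolysis when they are activated through Toll-like receptors, and the labels name no such stimulus here.

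The coding sequences carry the codons that queuosine-modified tRNAs read, NAU and NAC, where N is any base. The members at the ends of the range were Gpi1, glucose-6-phosphate isomerase, with 23.9% of its 88 such codons ending in U, and Dlat, the acetyltransferase of pyruvate dehydrogenase, with 63.6% of 55. The window of 40 codons holding most of them is shown for each to make the contrast visible, 5′ to 3′ in DNA letters, with every Asn, Asp, His and Tyr codon in capitals. It spans codons 16 to 55 of ENSMUST00000038027.7 and codons 434 to 473 of ENSMUST00000034567.5, counted from the start codon (GENCODE, GRCm39).
Gpi1: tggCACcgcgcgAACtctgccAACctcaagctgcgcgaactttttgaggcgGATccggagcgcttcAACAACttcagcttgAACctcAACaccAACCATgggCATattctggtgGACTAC
Dlat: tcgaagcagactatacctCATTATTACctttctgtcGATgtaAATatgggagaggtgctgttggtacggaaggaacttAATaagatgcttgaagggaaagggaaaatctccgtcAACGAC
In the Gpi1 window 10 of 13 marked codons end in C, and in the Dlat window 5 of 8 end in T (U in the mRNA).

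The pathways had different shares of these codons, as the plot of codon shares shows. The median share of U-ending codons was 35.8% for glycolysis, 34.4% for the pentose phosphate pathway and 50% for the TCA set, beside 44% over 8694 tested protein-coding genes with at least 20 such codons. Of the glycolysis genes 13 of 16 lay below that median, the exceptions being Pfkp (47.7%), Aldoa (50%) and Pgk1 (51.7%). Of the TCA set 11 of 15 lay at or above it, and its lowest member was Mdh2, the mitochondrial malate dehydrogenase, at 24.3%. Weighted by transcript level per length, the members together held 1.69% ± 0.0940 of these codons in the transcriptome in 0Q and 1.64% ± 0.0877 in 100Q (SD over 3 libraries). Of the members' own weighted codons 36.2% ± 0.301 ended in U in 0Q and 36.3% ± 0.106 in 100Q. Over the 37 members the log2 fold change and the share of U-ending codons had a Spearman rho of -0.16, a weak relation between genes measured in the same 6 libraries, given as a description.

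**Figure D1:**
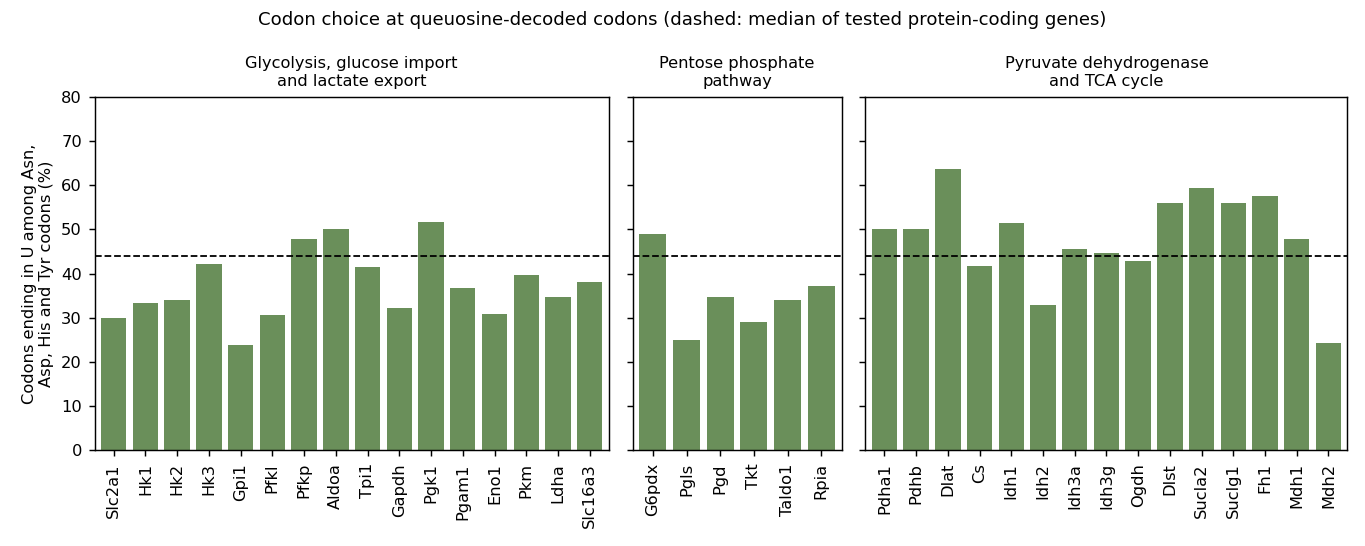
Codons ending in U as a share of all Asn, Asp, His and Tyr codons in each of the 37 coding sequences (percent, 1 bar per gene, grouped by pathway). The dashed line is the median of the tested protein-coding genes, 44%, with most glycolysis genes below it and 11 of 15 TCA genes at or above it.

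Libraries held 3675918 to 19386533 counts, the deepest being 100Q replicate 3. Levels are given as CPM, counts per 1000000 of a library's total after edgeR's TMM scaling, and values of a group are listed for replicates 1, 2 and 3. The members took 1.06% to 1.26% of the counts of a library. The dendritic cell markers H2-Aa, H2-Ab1, H2-Eb1 and Itgax (CD11c) were detected at 119 to 578 CPM on average, whereas the defining genes Flt3 and Zbtb46 were at 2.23 and 1.81 CPM. The 10 dendritic markers summed to 1028 to 1196 CPM without queuine and 1058 to 1214 CPM with it, far below the granulocyte markers given below. Such sums over lists of different genes do not measure numbers of cells. Of the 10 dendritic markers tested, 7 estimates were above 0, 1 had an unadjusted p under 0.05 by edgeR and 2 had groups that did not overlap, Itgax and Irf4. Itgax had 98.6 ± 26.8 CPM without queuine against 140.2 ± 14.7 CPM with it (SD, n = 3 each), at a log2 fold change of 0.51 ± 0.19 (SE; 95% interval from 0.10 to 0.91), and was higher in every 100Q library. The 3 dendritic estimates below 0 were those of Batf3 (-0.49), Ccr7 (-0.18) and H2-Ab1 (-0.088). H2-Aa, the most abundant of the list, was at 0.0099. Macrophage markers summed to 1263 to 1473 CPM without queuine and 1100.1 to 1485 CPM with it. The 10 granulocyte markers summed to 16945 to 19857 CPM without queuine and 14131 to 17204 CPM with it. The highest were S100a9 and S100a8, at 5659 and 3561 CPM on average. For the 10 granulocyte markers, 10 of 10 estimates lay below 0. Of these 3 had an unadjusted p under 0.05 by edgeR and 3 had groups that did not overlap. Both times they were Camp, Ngp and Ly6g, at log2 fold changes of -0.32, -0.22 and -0.46. Over all tested genes those shares were 2.93% and 8.24%, and 67.8% of genes at 100 CPM or more had estimates below 0. The 6 mast cell and basophil markers summed to 449 to 502 CPM without queuine and 344 to 442 CPM with it. The part of these lists in the members' values was not tested. B cell, T and NK cell, erythroid and stromal lists each summed to 54.8 CPM or less in all libraries, with Klf1, Cd3e and Cdh5 at 0 counts. In such bulk libraries fewer cells of a type and less RNA per cell cannot be told apart.

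None of the 37 transcripts changed with queuine at the threshold used, an adjusted p under 0.05 by edgeR's quasi-likelihood test. Over all 10554 tested genes 0 were called, which is 0%, DESeq2 and limma-voom also called 0 genes, and the members' adjusted p values were all 0.999 or above. At an unadjusted p under 0.05 there was 1 member, Pgam1, beside 2.93% of all tested genes. By DESeq2 0 members were called and 1 had an unadjusted p under 0.05, beside 544 of 21304 genes. By limma-voom the numbers were 0 and 0, beside 310 of 10554 genes with an unadjusted p under 0.05. The libraries of one group lay wholly to one side of the other for 3 members, beside 8.24% of all tested genes. Higher in 100Q was 1 of these, Aldoa, beside 4.41% of genes, and lower were 2, Hk2 and Suclg1, beside 3.84%.

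The precision was enough to bound the change of the abundant enzymes. Of the 21 members with a mean of 100 CPM or more, 18 had a 95% interval that stayed within 1.5-fold in either direction, beside 89.5% of the 1328 tested genes of that abundance. The exceptions were Gpi1, Pgam1 and Pdha1. Among all 37 members 31 had an interval within 2-fold. The widest intervals belonged to Hk1, Pfkl, Slc16a3 and Pgls, the 4 members below 10 CPM, as the plot of estimated changes shows.

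**Figure D2:**
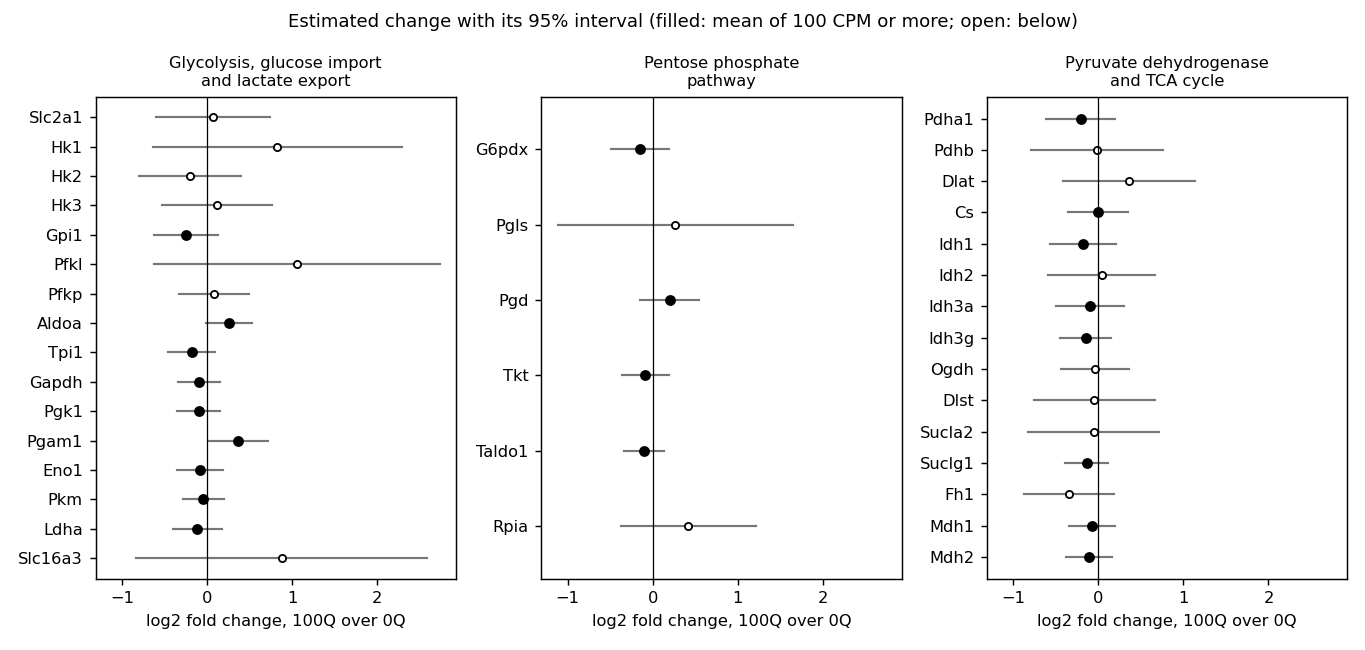
Estimated log2 fold change of 100Q over 0Q for each of the 37 transcripts (points) with its 95% interval (lines), by pathway. Filled points have a mean of 100 CPM or more, open points less. All intervals cover 0 except that of Pgam1, whose lower bound is 0.028.

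Glycolytic transcripts were on the whole abundant and close in both groups. Summed over the 16 genes they reached 6864 ± 862 CPM without queuine and 6502 ± 718 CPM with queuine (SD of 3 libraries), and the ranges of the groups overlapped. Of the 16 tested, 8 gave estimates above 0 and 8 gave estimates below, the median log2 fold change being 0.017, and 0 passed the test. Over all tested genes 50% of the estimates lay below 0. Of the 9 glycolysis members at 100 CPM or more, 7 lay below 0, with a median of -0.093. Over all tested genes of that abundance 67.8% lay below 0, with a median of -0.065. Per kilobase of representative transcript, the scale used here to compare genes, both ends of the pathway were low. The lactate exporter Slc16a3 had the lowest value, 0.540 CPM per kilobase, but its range over the libraries overlapped that of Pfkl. Per kilobase of the union of annotated exons Pfkl was the lower of the pair, at 0.211 against 0.225. Glucose entry and the first kinases stood at 0.663 to 17.3 CPM per kilobase (Slc2a1, Hk1, Hk2, Hk3, Pfkl, Pfkp), Gpi1 between them at 167, and the steps from aldolase to lactate dehydrogenase at 105 to 1069. The plot of levels shows the same spread in CPM, not corrected for length.

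**Figure D3:**
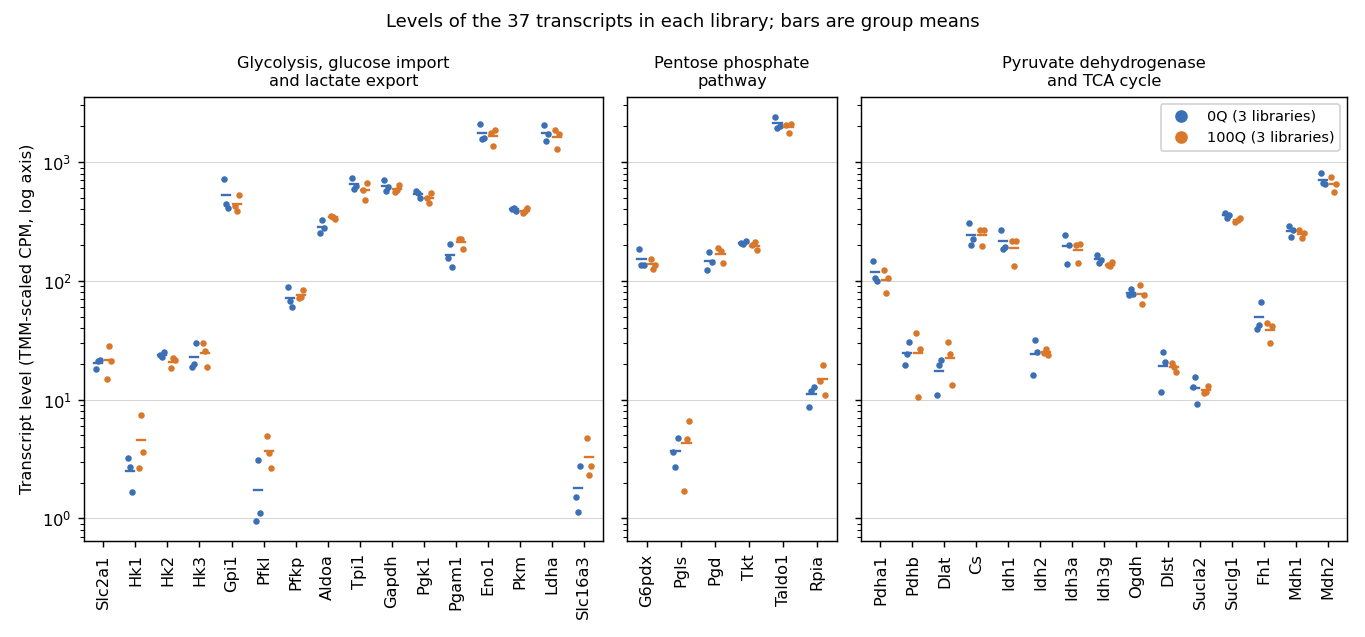
Level of each of the 37 transcripts in each of the 6 libraries (points, TMM-scaled CPM on a log axis, not divided by length) with group means (bars), by pathway. Taldo1, Ldha and Eno1 are the highest 3 by mean, and the points of 0Q and 100Q overlap for 34 of 37 genes.

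The glucose transporter GLUT1 is encoded by Slc2a1 (ENSMUSG00000028645, chromosome 4, 118965908 to 118996365, GRCm39, as all positions of genes here). Slc2a1 had values of 17.9, 21.2 and 21.7 CPM in the 0Q libraries against 14.8, 28.2 and 20.98 in the 100Q libraries. The lowest and the highest library were both in 100Q, and the log2 fold change was 0.074 ± 0.32 (SE; 95% interval from -0.59 to 0.74). Hexokinases trap glucose as glucose 6-phosphate. Hk3, the form known from myeloid cells, had 18.9, 19.9 and 29.7 CPM without queuine and 29.8, 25.7 and 18.7 CPM with it. Hk2, an inducible form that binds mitochondria, had values of 23.6, 22.99 and 25.001 CPM in the 0Q libraries against 18.4, 22.5 and 21.3 in the 100Q libraries. Every 100Q library of Hk2 lay below every 0Q library, but the nearest pair differed by only 22.99 against 22.5 CPM, and the log2 fold change was -0.20 ± 0.28 (SE; 95% interval from -0.80 to 0.40). Hk1, the widely expressed form, had 3.21, 2.68 and 1.67 CPM without queuine and 2.66, 7.37 and 3.65 CPM with it. Between 6 and 69 reads per library lay behind those Hk1 values, so its log2 fold change of 0.83 ± 0.70 (SE; 95% interval from -0.64 to 2.29) is imprecise. Hk1os, a noncoding gene on the other strand, overlaps 7.99% of the Hk1 transcript and had 2.92 CPM on average, so reads of the pair may be shared. By level per length Hk3 made up 65.4% ± 5.84 of the hexokinase transcripts in 0Q and 66.9% ± 7.59 with queuine (SD, n = 3), a difference smaller than either SD.

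Gpi1 turns glucose 6-phosphate into fructose 6-phosphate (ENSMUSG00000036427, chromosome 7, 33900755 to 33929780). Gpi1 had values of 722, 447 and 412 CPM in the 0Q libraries against 424, 386 and 524 in the 100Q libraries. The library of 0Q replicate 1 stood well above the other 5, and without it the log2 fold change of Gpi1 went from -0.24 to 0.052. Phosphofructokinase commits the sugar to glycolysis. Its platelet-type gene Pfkp had 88.95, 67.4 and 60.6 CPM without queuine and 71.7, 73.5 and 84.4 CPM with it, and its liver-type gene Pfkl had values of 0.944, 3.10 and 1.11 CPM in the 0Q libraries against 4.94, 3.58 and 2.64 in the 100Q libraries. Pfkp accounted for 97.5% ± 1.84 of the level per length of the pair in 0Q and 95.1% ± 1.79 in 100Q. The log2 fold changes were 0.083 ± 0.19 (SE; 95% interval from -0.33 to 0.49) for Pfkp and 1.06 ± 0.80 (SE; 95% interval from -0.62 to 2.74) for Pfkl, which rested on 4 to 50 reads per library. Both genes overlap a neighbour on the other strand, Pfkp with Pitrm1 over 42.5% of its transcript and Pfkl with Cfap410 over 24.2%, and since no source used here gives the strand setting, reads of the partners cannot be told apart.

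Aldolase A, encoded by Aldoa (ENSMUSG00000030695, chromosome 7, 126393822 to 126399923), cleaves fructose 1,6-bisphosphate. Aldoa had 252, 325 and 279 CPM without queuine and 349.6, 346 and 331 CPM with it. All 100Q libraries lay above all 0Q libraries, with 331 against 325 CPM in the nearest pair. The log2 fold change was 0.26 ± 0.13 (SE; 95% interval from -0.0093 to 0.53), with an unadjusted p of 0.0575 and an adjusted p of 0.999 by edgeR. Pgam1, phosphoglycerate mutase (ENSMUSG00000011752, chromosome 19, 41900341 to 41907104), had values of 156, 204 and 131 CPM in the 0Q libraries against 224, 227 and 186 in the 100Q libraries. Its groups overlapped, since 0Q replicate 2 stood above 100Q replicate 3. The log2 fold change of Pgam1 was 0.37 ± 0.16 (SE; 95% interval from 0.028 to 0.72), with an unadjusted p of 0.0356 and an adjusted p of 0.999 by edgeR, the smallest unadjusted p of the members. Leaving out single libraries moved the unadjusted p of Pgam1 by edgeR between 0.00401 (without 0Q replicate 2) and 0.195 (without 0Q replicate 3), and no setting brought it past the threshold. Small p values were more frequent over the whole table without 0Q replicate 2. There 662 of 10975 tested genes had an unadjusted p under 0.05 by edgeR, beside 309 of 10554 with all libraries.

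Tpi1, triosephosphate isomerase, which interconverts the products of aldolase, had 654 ± 72.5 CPM without queuine against 577 ± 96.1 CPM with it (SD, n = 3 each), and the log2 fold change was -0.18 ± 0.13 (SE; 95% interval from -0.46 to 0.10). Pgk1, phosphoglycerate kinase, the first ATP-forming step, had 536 ± 38.2 CPM without queuine against 501 ± 49.5 CPM with it, and the log2 fold change was -0.098 ± 0.12 (SE; 95% interval from -0.35 to 0.15). Gapdh (ENSMUSG00000057666, chromosome 6, 125135289 to 125143518), the NAD-dependent dehydrogenase of the pathway that is often used as a reference gene, had 713, 576 and 615 CPM without queuine and 561, 579 and 644 CPM with it. The groups overlapped and the log2 fold change of Gapdh was -0.093 ± 0.12 (SE; 95% interval from -0.34 to 0.16), so a change of more than 1.5-fold lay outside its interval. Eno1, enolase, which forms phosphoenolpyruvate, had values of 2084, 1570.0 and 1600.3 CPM in the 0Q libraries against 1749, 1372 and 1846 in the 100Q libraries. Its groups overlapped as well, at a log2 fold change of -0.081 ± 0.13 (SE; 95% interval from -0.36 to 0.19). Pkm, the pyruvate kinase of most dividing and immune cells, had 404, 409 and 387 CPM without queuine and 374, 385 and 407 CPM with it. The 6 values of Pkm lay close together, with a log2 fold change of -0.041 ± 0.11 (SE; 95% interval from -0.28 to 0.20).

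Ldha, lactate dehydrogenase A (ENSMUSG00000063229, chromosome 7, 46490899 to 46505061), had the highest level per length of the glycolysis genes, 1069 ± 169 CPM per kilobase (SD, n = 6), followed by Eno1 at 743 ± 108, and the ranges of these 2 over the 6 libraries overlapped. Eno1 in turn lay above Gapdh (433) in all libraries, while Gapdh and Tpi1 (383), and Tpi1 and Pgk1 (284), overlapped. The order after Ldha depended on the length used: per kilobase of the union of annotated exons Ldha had 358, Pgk1 231, Tpi1 222, Eno1 148 and Gapdh 85.8 CPM. Ldha had values of 2066, 1503 and 1729 CPM in the 0Q libraries against 1853, 1300.0 and 1738 in the 100Q libraries. The highest Ldha value was in 0Q replicate 1 and the lowest in 100Q replicate 2, and the log2 fold change was -0.11 ± 0.14 (SE; 95% interval from -0.40 to 0.17). Slc16a3, the lactate exporter MCT4, had 1.51, 1.13 and 2.78 CPM without queuine and 4.75, 2.32 and 2.75 CPM with it. These values rest on 8 to 52 reads per library, and 52.4% of the Slc16a3 transcript overlaps Csnk1d on the other strand, which had 18.7 CPM on average, so the level of Slc16a3 is uncertain. Its log2 fold change was 0.88 ± 0.81 (SE; 95% interval from -0.83 to 2.59).

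Many glycolysis genes are known targets of the hypoxia-inducible factor HIF-1, whose binding core is ACGTG, a sequence also contained in the E-box CACGTG bound by Myc and USF proteins. The promoter of Ldha is shown because it held most such matches of the glycolysis genes, read from RefSeq on GRCm38.p6 (chr7:46845554-46845853, plus strand, 250 bases before to 50 after the start), with ACGTG on either strand in capitals.
Ldha: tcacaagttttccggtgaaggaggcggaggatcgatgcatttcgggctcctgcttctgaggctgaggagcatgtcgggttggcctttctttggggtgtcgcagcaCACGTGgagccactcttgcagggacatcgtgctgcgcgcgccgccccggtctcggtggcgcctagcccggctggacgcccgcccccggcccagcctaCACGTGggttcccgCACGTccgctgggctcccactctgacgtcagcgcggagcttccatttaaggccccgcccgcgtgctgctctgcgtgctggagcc
The 3 marked places include 2 that read CACGTG, where the core occurs on both strands. With the first listed start of each gene, 8 of 16 glycolysis promoters held ACGTG on either strand, 1 of 6 of the pentose phosphate pathway and 4 of 14 of the TCA set, beside 19.7% of 27025 promoters of the same length. The table matched 36 of the 37 members, and Idh3a was missing.

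The pentose phosphate pathway was dominated by a single transcript. Taldo1, transaldolase, which moves 3-carbon units in the non-oxidative arm (ENSMUSG00000025503, chromosome 7, 140972053 to 140982886), had values of 2405, 1931 and 2020.0 CPM in the 0Q libraries against 2072, 1764 and 2075 in the 100Q libraries. At 1616 ± 167 CPM per kilobase (SD, n = 6) it stood above every other member of the 3 routes. Next in its pathway came Tkt at 63.2 ± 3.69, then Pgd at 46.1, G6pdx at 24.7 and Rpia at 7.09, each above the next in all 6 libraries, whereas Rpia and Pgls (4.22) overlapped. Divided by the union of annotated exons instead, the first 3 of these turned round, with G6pdx at 22.5, Pgd at 20.03 and Tkt at 19.5 CPM per kilobase, while Taldo1 stayed first at 838. The 6 genes summed to 2644 ± 257 CPM without queuine and 2495 ± 170.2 CPM with it, with overlapping groups. Estimates were above 0 for 3 and below for 3, the median log2 fold change being 0.058, and 0 passed the test. Of the 4 members at 100 CPM or more, 3 lay below 0, with a median of -0.095. The log2 fold change of Taldo1 was -0.10 ± 0.11 (SE; 95% interval from -0.34 to 0.13).

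The oxidative arm makes NADPH at 2 steps. G6pdx, glucose-6-phosphate dehydrogenase, its entry enzyme, had 187, 136 and 136 CPM without queuine and 154, 126 and 135 CPM with it. The value of 0Q replicate 1 was the highest of the 6, and the log2 fold change was -0.15 ± 0.16 (SE; 95% interval from -0.49 to 0.19). On the other strand Ikbkg, at 22.4 CPM on average, overlaps 3.998% of the G6pdx transcript. Pgd, 6-phosphogluconate dehydrogenase, the second NADPH-forming enzyme, had values of 123, 173 and 145 CPM in the 0Q libraries against 189, 179 and 141 in the 100Q libraries. Here 0Q replicate 1 was the lowest of the 6, and the log2 fold change of Pgd was 0.20 ± 0.16 (SE; 95% interval from -0.15 to 0.55) with an unadjusted p of 0.238 by edgeR. Pgls, the lactonase between them, had 3.66 ± 1.02 CPM without queuine against 4.30 ± 2.44 CPM with it on 9 to 124 reads per library, so that its interval of -1.12 to 1.65 on the log2 scale bounds little. In the non-oxidative arm Tkt, transketolase, had 209.6, 204 and 217 CPM without queuine and 199.6, 211 and 183 CPM with it. Its groups overlapped and its log2 fold change was -0.086 ± 0.13 (SE; 95% interval from -0.36 to 0.19). Rpia, which forms ribose 5-phosphate, had values of 8.69, 11.7 and 12.8 CPM in the 0Q libraries against 14.4, 19.4 and 10.8 in the 100Q libraries. The log2 fold change of Rpia was 0.42 ± 0.38 (SE; 95% interval from -0.37 to 1.21), the widest in the pathway after that of Pgls.

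Of the TCA set 13 of 15 members had estimates below 0 in 100Q and 2 above, the median log2 fold change being -0.076, and 0 passed the test. All 8 members at 100 CPM or more were among those below 0, but so were 67.8% of all 1328 tested genes of that abundance, whose median was -0.065 beside -0.12 for the 8 members. The count above 0 was 4 of 15 without a filter on low counts and also with 100Q replicate 3 thinned. It was 3 with library totals alone, by limma-voom, with only genes at 10 CPM or more in 3 libraries and after removal of the length trend of each library. Among omissions it was 5 without 0Q replicate 1, 5 without 0Q replicate 2, 4 without 0Q replicate 3 and 6 without 100Q replicate 2. Summed levels were 2482 ± 281 CPM without queuine and 2306 ± 291 CPM with it (SD of 3 libraries), with overlapping groups.

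Pyruvate dehydrogenase is built from an E1 heterotetramer of the products of Pdha1 and Pdhb, the acetyltransferase E2 of Dlat, and an E3 subunit. Pdha1, which carries the regulatory phosphorylation sites, had 148, 106 and 100.3 CPM without queuine and 123, 78.4 and 105 CPM with it. Its highest value was in 0Q replicate 1 and its lowest in 100Q replicate 2, and the log2 fold change was -0.21 ± 0.20 (SE; 95% interval from -0.62 to 0.20). Pdhb had 24.9 ± 5.63 CPM without queuine against 24.5 ± 13.1 CPM with it (SD, n = 3 each). Dlat, whose U-rich stretch of codons is printed above, had 17.4 ± 5.68 CPM without queuine against 22.6 ± 8.81 CPM with it. The log2 fold changes were -0.013 ± 0.37 (SE; 95% interval from -0.79 to 0.76) for Pdhb and 0.37 ± 0.37 (SE; 95% interval from -0.41 to 1.14) for Dlat. Per length Pdha1 (38.4 CPM per kilobase) stood above Pdhb (16.2) in all libraries and Dlat (2.98) and Sucla2 were the lowest of the set. Pdhb overlaps Pxk on the other strand over 22.2% of its transcript, and Pxk had 175 CPM on average, so the level of Pdhb is uncertain. The ends of Idh3g and Ssr4 overlap in the same way, over 19.1% of the Idh3g transcript, with Ssr4 at 516 CPM on average. Reads of both pairs may be shared.

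Cs, citrate synthase (ENSMUSG00000005683, chromosome 10, 128172837 to 128198363), which joins acetyl-CoA and oxaloacetate, had values of 308, 201 and 225 CPM in the 0Q libraries against 269, 197 and 267 in the 100Q libraries. The groups overlapped and the estimate was near 0, at -0.0015 ± 0.17 (SE; 95% interval from -0.35 to 0.35) on the log2 scale. Isocitrate is oxidized by 3 kinds of enzyme. Idh1, the cytosolic NADP form, had 267, 186 and 193 CPM without queuine and 219, 134 and 216 CPM with it, and Idh2, the mitochondrial NADP form, had values of 16.2, 31.4 and 25.3 CPM in the 0Q libraries against 24.7, 26.5 and 23.9 in the 100Q libraries. Idh1 made up 81.9% ± 7.08 of the level per length of this pair in 0Q and 79.3% ± 5.61 in 100Q. Their log2 fold changes were -0.18 ± 0.18 (SE; 95% interval from -0.57 to 0.21) for Idh1 and 0.039 ± 0.30 (SE; 95% interval from -0.59 to 0.67) for Idh2. For the NAD-dependent form, Idh3a, the catalytic subunit, had 195 ± 53.1 CPM without queuine against 182 ± 35.4 CPM with it. Idh3g, a regulatory subunit, had 152 ± 13.2 CPM without queuine against 137 ± 5.58 CPM with it. Their log2 fold changes were -0.096 ± 0.19 and -0.15 ± 0.14 (SE), and both genes had overlapping groups.

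Oxoglutarate dehydrogenase has the same plan as pyruvate dehydrogenase, with an E1 from Ogdh and an E2 from Dlst. Ogdh had 75.4, 85.9 and 77.2 CPM without queuine and 92.8, 63.6 and 75.5 CPM with it. The libraries of 100Q held both its highest and its lowest value, and the log2 fold change was -0.041 ± 0.19 (SE; 95% interval from -0.44 to 0.36). Dlst had 19.2 ± 7.07 CPM without queuine against 18.7 ± 1.49 CPM with it, and its log2 fold change was -0.048 ± 0.34 (SE). Succinyl-CoA ligase pairs the alpha subunit of Suclg1 with a beta subunit such as that of Sucla2, which forms ATP. Suclg1 (ENSMUSG00000052738, chromosome 6, 73225365 to 73253894) had values of 376, 336 and 361 CPM in the 0Q libraries against 314, 324 and 336 in the 100Q libraries. All 100Q libraries lay below the lowest 0Q library of Suclg1, and the nearest pair, 335.9 and 335.7 CPM, hardly differed. Its log2 fold change was -0.14 ± 0.12 (SE; 95% interval from -0.39 to 0.11), with an unadjusted p of 0.255 by edgeR. Sucla2 had 12.5 ± 3.12 CPM without queuine against 12.03 ± 0.934 CPM with it, with a log2 fold change of -0.056 ± 0.37 (SE), and per length Suclg1 (225 CPM per kilobase) stood far above it (4.11).

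Fh1, fumarase, had the smallest unadjusted p of the TCA set, 0.183 by edgeR. Fh1 had 39.7, 42.4 and 65.8 CPM without queuine and 43.9, 29.7 and 41.6 CPM with it. The highest value was in 0Q replicate 3, and without that library the log2 fold change of -0.35 ± 0.25 (SE; 95% interval from -0.88 to 0.18) became -0.094. Malate dehydrogenase occurs in the cytosol (Mdh1) and in mitochondria (Mdh2), where the pair also serves the malate-aspartate shuttle. Mdh2 (ENSMUSG00000019179, chromosome 5, 135807292 to 135820882), the most abundant of the TCA set per length at 455 ± 58.4 CPM per kilobase (SD, n = 6), had values of 810.0, 661 and 653 CPM in the 0Q libraries against 755, 560.3 and 657 in the 100Q libraries. Mdh1 had 289, 236 and 267 CPM without queuine and 269, 231 and 251 CPM with it. In both genes 0Q replicate 1 was the highest library and 100Q replicate 2 the lowest. Per length Mdh2 stood above Suclg1 and Suclg1 above Mdh1 (103 CPM per kilobase) in all libraries, while Mdh1 overlapped Idh3g (91.7), and Idh3g overlapped Cs (82.8). Mdh2 made up 81.7% ± 1.17 of the pair per length in 0Q and 81.3% ± 1.11 in 100Q, and their log2 fold changes were -0.11 ± 0.13 (SE; 95% interval from -0.38 to 0.17) for Mdh2 and -0.076 ± 0.13 (SE; 95% interval from -0.35 to 0.20) for Mdh1.

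Most abundant members were highest in 1 library and lowest in another, as the grid of deviations shows. Of the 21 members at 100 CPM or more, 16 had their highest value in 0Q replicate 1 and 13 their lowest in 100Q replicate 2, beside 45.3% and 36.97% of all 1328 tested genes of that abundance. In the TCA set these were 8 and 6 of 8. The mean deviation of log2(CPM + 1) from the mean of the 6 libraries was 0.30 for the TCA set in 0Q replicate 1 and -0.29 in 100Q replicate 2, and 0.15 and -0.13 for glycolysis. Aldoa, Pgam1 and Pgd ran the other way, with values below their means in 0Q replicate 1 and above them in 100Q replicate 2. Across 6250 genes, which are not independent, the deviation correlated with transcript length at a Spearman rho of -0.28 in 0Q replicate 1, 0.21 in 0Q replicate 2 and 0.18 in 100Q replicate 2. With this trend removed, 2 members, Aldoa and Pgam1, had an unadjusted p under 0.05 by edgeR, beside 324 of 10554 tested genes. With library totals alone the number of members was also 2, beside 312 of 10554 tested genes. With replicate number as a block it was 2, beside 421 of 10554. With only genes at 10 CPM or more in 3 libraries it was 2, beside 187 of 6395. Leaving out 0Q replicate 2 gave 2 members as well, beside 662 of 10975 tested genes, and the other settings gave 0 or 1. Removal of the trend moved the log2 fold change of Hk2 from -0.20 to -0.28, that of G6pdx from -0.15 to -0.22 and that of Taldo1 from -0.10 to -0.041.

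**Figure D4:**
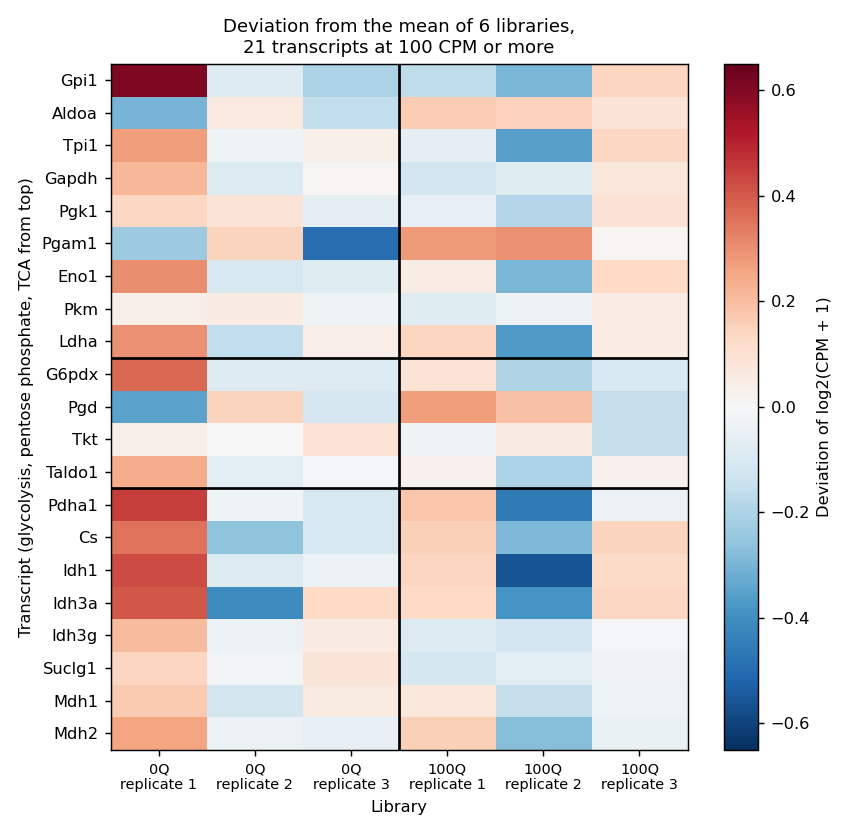
Deviation of log2(CPM + 1) from the mean of the 6 libraries (color) for the 21 members at 100 CPM or more (lines of the grid, glycolysis, pentose phosphate and TCA from top) in each library (columns, 0Q left and 100Q right of the black line). The column of 0Q replicate 1 is mostly above the mean and that of 100Q replicate 2 mostly below it.

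Reads of several members may be divided with near-identical copies. Annotated copies matching 50% or more of the coding sequence at 90% identity or more were found for 14 members. Eno1 shared most with them: the 6 copies took 13.98% to 19.1% of the joint counts of a library, nearly all in Eno1b, which matches at 99.4% identity. For Gapdh 170 copies took 6.88% to 8.28%. The copy with most counts there was Peli2, another protein-coding gene with a matching stretch, and for Taldo1 it was Cep85l. All reads of such a gene were counted, so these shares include reads that are not from the stretch. For the other 12 members with copies the share was 2.01% or less in every library, the most in Pdhb.

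Other genes of the same routes were read from lists of isozymes, regulators and neighbouring enzymes. Of the other glycolysis genes 15 of 24 were tested, 8 estimates were above 0 and 7 below, and 0 passed the test, 0 having an unadjusted p under 0.05, the median log2 fold change being 0.028. Aldoc, a second aldolase, had 24.8 ± 9.85 CPM without queuine against 30.4 ± 3.92 CPM with it, and Tigar, a bisphosphatase that opposes phosphofructokinase, had 14.6 ± 2.70 CPM without queuine against 11.6 ± 7.63 CPM with it. The most abundant was Adpgk, an ADP-dependent glucokinase, at 28.3 CPM, and Hkdc1, Pgam2 and Pklr had 0 counts in all 6 libraries. Of the other pentose phosphate genes 6 of 8 were tested, 2 estimates were above 0 and 4 below, and 0 passed the test, 0 having an unadjusted p under 0.05. Nadk, which makes NADP, was the most abundant with 129 ± 20.9 CPM without queuine against 109.6 ± 18.8 CPM with it, and Prps1, which makes phosphoribosyl pyrophosphate, had 20.5 ± 2.87 CPM without queuine against 15.99 ± 3.46 CPM with it. Of the other TCA genes 26 of 30 were tested, 13 estimates were above 0 and 13 below, and 0 passed the test, 0 having an unadjusted p under 0.05, with a median of 0.0062. Mpc1, a subunit of the mitochondrial pyruvate carrier, was the most abundant with 812 ± 116 CPM without queuine against 759 ± 43.4 CPM with it. Sdhd, an anchor subunit of succinate dehydrogenase, had 403 ± 40.5 CPM without queuine against 364 ± 29.2 CPM with it, and Suclg2, the GTP-forming beta subunit of succinyl-CoA ligase, had 5.43 ± 2.52 CPM without queuine against 9.42 ± 3.64 CPM with it (SD, n = 3 each).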

How the data were processed

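The values deposited by the authors are unnormalized expected counts, 1 column a library. FastQC, STAR, RSEM and the build mm39 (GRCm39) are named in the submitters' processing notes; RSEM divides ambiguous reads between genes. Versions, the annotation release and the strand setting are not given there. Counts were rounded. Of 57132 identifiers 56630 matched GENCODE mouse release 39 (GRCm39), which gave symbols, positions, coding sequences and the length of the Ensembl canonical transcript, and 0 columns were left unused.

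Genes were tested for 100Q relative to 0Q with edgeR 4.0.16 in R 4.3.3 (filterByExpr, TMM, robust glmQLFit, glmQLFTest) over all 10554 tested genes, with Benjamini-Hochberg adjustment. Standard errors are the log2 fold change over the root of F. This step was tested on simulated data. Floors of 3 counts lay at 0.159 to 0.833 CPM, for counting error only. Alternatives were DESeq2 1.42.0, limma-voom (limma 3.58.1), other scalings and filters, the replicate number as a block, thinning, removal of the length trend and each library left out. Copies were found with blastn.

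The members and lists were chosen with earlier results of these data known. Values of each library are given for the most abundant member per length and the 2 of smallest p in each pathway, for members whose groups do not overlap and for a set of central enzymes. Other lists are named by their 2 smallest p and their most abundant gene. Isozyme proteins were not analysed here.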

Additional observations from a re-analysis of the deposited data

How the results depend on the processing

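No member passed the threshold in any setting tried: 0 of 329 values in other scalings, filters, tests and corrections, 0 of 222 with a library left out, and 0 of 37 with replicate number as blocking factor, the smallest adjusted p being 0.757. Over all genes the count stood at 0 but for 2 omissions: leaving out 0Q replicate 1 gave 2 genes (Gm46542, Gvin2), and leaving out 0Q replicate 2 gave 1 (Gm2446), named after their values were seen, for a range of 0 to 2. The replicate numbers do not pair the samples in the labels. Same-numbered libraries had deviations correlated at 0.047, 0.17 and -0.051 and others at -0.20 to 0.21, so not every library correlated best with its own number, and the block gave 0 genes and 0 members past the threshold. With it the estimate of Cs was 0.0063 and that of Dlst 0.015, both opposite in sign to the values without it, and it changed no other direction, so that 4 TCA estimates were above 0 in place of 2. The glycolysis median of 0.017 was 0.053 with library totals alone and -0.067 with only genes at 10 CPM or more in 3 libraries, which dropped Hk1, Pfkl and Slc16a3, and lay between -0.047 and 0.033 when single libraries were omitted. The pentose phosphate median of 0.058 was -0.072 under that filter, which dropped Pgls, and ranged from -0.082 to 0.063. The TCA median stayed below 0 in every setting, from -0.16 to -0.011 with 1 library omitted. At the upper end, without 100Q replicate 2, it was -0.0106 beside -0.0115 over all tested genes, so the set was not lower than the rest there. Estimates near 0 changed sign: Cs had 0.040 with library totals alone, 0.014 without a filter on low counts, 0.013 with the stricter filter and 0.047 by limma-voom, Pdhb had 0.0043 without a filter and 0.020 with the length trend removed, and Dlst and Sucla2 had 0.0012 and 0.0030 with 100Q replicate 3 thinned. Over omitted libraries 18 members changed sign, with log2 fold changes of -0.17 to 0.27 for Slc2a1, -0.050 to 0.34 for Hk3, -0.40 to 0.052 for Gpi1, -0.028 to 0.26 for Pfkp, -0.17 to 0.00075 for Gapdh, -0.17 to 0.065 for Eno1, -0.23 to 0.018 for Ldha, -0.24 to 0.022 for G6pdx, -0.20 to 0.63 for Pgls, -0.40 to 0.33 for Pdhb, -0.13 to 0.20 for Cs, -0.30 to 0.0058 for Idh1, -0.19 to 0.27 for Idh2, -0.30 to 0.10 for Idh3a, -0.20 to 0.072 for Ogdh, -0.31 to 0.21 for Dlst, -0.23 to 0.12 for Sucla2 and -0.22 to 0.0027 for Mdh2. The cause was not tested. With the union of annotated exons as length, level per length changed in order within all 3 pathways, and no rank moved by more than 5 places. For glycolysis and the pentose phosphate pathway the changes are given with those levels. In the TCA set Cs (38.5 CPM per kilobase) and Idh1 (30.4) then stood above Idh3g (28.0), and Ogdh (8.37) above Pdhb (5.04). Mdh2, Suclg1 and Mdh1 stayed in front. The isozyme shares given above use the representative transcript and depend on that choice, which their SDs do not cover. Per kilobase of the exon union Mdh2 had 127 CPM against 54.8 for Mdh1, and Idh1 had 30.4 against 2.91 for Idh2. Below 10 CPM a library held as few as 4 reads of a member, which limits Hk1, Pfkl, Slc16a3 and Pgls.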

Other observations

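None of the genes of the HIF-1 and hypoxia list passed the test by edgeR. Of 17 genes 13 were tested, 6 estimates were above 0 and 7 below (median log2 fold change -0.061), and 2 had an unadjusted p under 0.05, beside 2.93% of all tested genes. Hif1a, the oxygen-regulated subunit of HIF-1, had values of 15.9, 25.5 and 18.1 CPM in the 0Q libraries against 29.1, 33.5 and 30.5 in the 100Q libraries. Each 100Q value exceeded each 0Q value, as in 4.41% of tested genes, and the log2 fold change was 0.64 ± 0.29 (SE; 95% interval from 0.038 to 1.24), with an unadjusted p of 0.0385 and an adjusted p of 0.999 by edgeR. Vegfa, an angiogenic growth factor, had 1.51, 0.564 and 1.94 CPM without queuine and 1.33, 9.69 and 4.33 CPM with it on 154 reads in all, and its highest value was in 100Q replicate 2. Higd1a, a mitochondrial protein, was the most abundant of the list with 93.7 ± 11.3 CPM without queuine against 89.01 ± 13.9 CPM with it (SD, n = 3 each).

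The nearly identical enolase gene Eno1b had 359 ± 94.9 CPM without queuine and 342 ± 62.5 CPM with it (SD over 3 libraries), with 932 to 7238 counts per library.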
